A study of Rattus norvegicus with 25 samples.

Results

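The resting profile of miRNAs in mitochondria isolated from the red portion of the gastrocnemius, a rat hindlimb muscle rich in oxidative fibres, is described from the 12 sedentary libraries of a series of 25. The libraries were chosen by their labels alone, and the 13 libraries of endurance-trained rats entered no result. All rats were male Wistar-Kyoto, allocated to their group at 5 weeks of age, and the sedentary ones stood on an unmoving treadmill on 5 days a week for 4 weeks. Each library came from about 100 mg of muscle of 1 rat and is named here by the number in its title (3 to 32). The mitochondria were captured with magnetic beads, in a kit sold for mouse tissue, and then kept for 1 h at 37 °C with 312 µg of the nuclease RNase A, a step that digests RNA left accessible outside them. Whole muscle, mitochondria without RNase A and other fractions were not analysed here, so the location of a counted miRNA, inside or outside a mitochondrion, was not tested.

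A miRNA is cut from a hairpin precursor as a short duplex. In most cases the strand from 1 arm of the hairpin, 5p or 3p, is loaded into an Argonaute protein and kept, and the other strand is degraded. The loaded strand pairs with target transcripts mainly through its seed, bases 2 to 8 from its 5′ end, so miRNAs with the same seed form a family with overlapping targets. miRNAs are encoded in the nucleus, many of them in introns of other genes or in clusters transcribed together, and a small number have been described inside mitochondria of heart and skeletal muscle.

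Mature sequences were found in RefSeq (rat assembly GRCr8) for 687 of the 764 listed rows. With near-identical rows counted once, as set out below, rows with a sequence took 87.3% of counts on average (82.4% to 92.5%). The following abundant miRNAs carry the results on rank and seed below, and the capitals mark the seed.
miR-1-3p: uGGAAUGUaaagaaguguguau
miR-1b: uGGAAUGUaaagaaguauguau
miR-206-3p: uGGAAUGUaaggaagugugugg
miR-378a-3p: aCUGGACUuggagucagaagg
let-7i-5p: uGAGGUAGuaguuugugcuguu
let-7c-5p: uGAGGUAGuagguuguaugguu
let-7f-5p: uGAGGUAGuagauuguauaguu
let-7b-5p: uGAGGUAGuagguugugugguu
miR-143-3p: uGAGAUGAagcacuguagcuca
miR-148a-3p: uCAGUGCAcuacagaacuuug
miR-127-3p: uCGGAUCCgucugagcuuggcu
miR-3473: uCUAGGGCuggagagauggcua
The first 3 share the seed GGAAUGU, and the 4 let-7 miRNAs share GAGGUAG. Counted in bases from the 5′ end, miR-1b differs from miR-1-3p by G17A, and miR-206-3p differs from it by A11G, A21G and U22G, all outside the seed. miR-486, miR-151-3p and miR-99a-5p are named only.

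Total counts ran from 12181 to 186006 per library, with a median of 76240 and 953967 in all. The libraries were not copies of each other: over the 66 pairs of libraries the lowest chi-square per degree of freedom was 48.3. Of the 764 rows, 240 had at least 1 count, 42 had a count in every library and 524 were at 0 in all 12. A 0 allows up to 3 counts, which is 3.14 CPM (counts scaled to a common library total) over all libraries and 16.1 to 246 CPM within a single one. Such limits cover counting error only, since reads without molecular identifiers are not independent molecules. Library 29 stood apart from the rest. It had the lowest median correlation of log2 CPM with the other libraries (r = 0.58 across miRNAs, as a description) and lay at 17.3 on the first principal component, which held 32.9% of the variance and on which the other libraries ran from -6.46 to 6.64. The main results that rest on it are given with and without it.

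Some rows of the table held almost the same counts, and those that met the following rule were counted once. Only rows with at least 100 counts were compared. A pair of rows was treated as near-identical if their counts lay within 10% of each other in all libraries with a summed count of 10 or more, and if 3 or more libraries could be compared. This gave 17 pairs in 13 groups of 28 rows, and the 15 surplus rows held 26.8% ± 3.16 of all counts (SD, n = 12; 20.4% to 31.1%). What is called an entry below is 1 such group, or a row on its own. Equal rows with too few counts for the rule stayed separate, such as miR-218a-5p with miR-218b and miR-450a-5p with miR-450b-5p. The number of entries with a count thus still includes some equal rows. With the surplus rows dropped, the library totals ran from 8957 to 129424.

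The sequences of the near-identical rows show how they relate. Most of these pairs, 10 of 17, are reverse complements of each other, 3 lie on the same strand, and for 4 no relation is given. The following pairs come from the 7 groups with most counts, and capitals mark the bases that match between the members of a pair, read in opposite directions for the antisense pairs.
miR-1-3p: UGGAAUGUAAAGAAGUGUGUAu
miR-3571 (antisense to miR-1-3p): UACACACUUCUUUACAUUCCAua
miR-378a-3p: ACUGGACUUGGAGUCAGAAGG
miR-3557-5p (antisense to miR-378a-3p): gCCUUCUGACUCCAAGUCCAGU
let-7f-5p: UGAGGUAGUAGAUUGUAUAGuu
miR-3596d (antisense to let-7f-5p): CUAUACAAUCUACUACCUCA
miR-125b-5p: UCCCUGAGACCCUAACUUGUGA
miR-3588 (antisense to miR-125b-5p): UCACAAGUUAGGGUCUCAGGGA
let-7a-5p: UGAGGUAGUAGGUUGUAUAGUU
miR-3596a (antisense to let-7a-5p): AACUAUACAACCUACUACCUCA
miR-133a-3p: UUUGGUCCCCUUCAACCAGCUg
miR-133b-3p (same strand): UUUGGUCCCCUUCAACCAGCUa
miR-103-3p: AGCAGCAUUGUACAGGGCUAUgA
miR-107-3p (same strand): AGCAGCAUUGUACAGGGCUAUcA
The miR-1-3p row held 78954 counts and its antisense partner miR-3571 held 78923, with a largest difference of 0.180% in any library. miR-125b-5p and miR-3588 both held 5478, and let-7a-5p and miR-3596a both held 4282. The entry named for miR-378a-3p holds 73005 counts and joins the rows of miR-378a-3p, miR-378b and miR-3557-5p.

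Near-identity followed the kind of sequence relation, though not in every case. Of 13 antisense pairs that match over at least 18 bases without a mismatch, 9 were near-identical. Among the other 4, let-7d-5p and miR-3596b differed by up to 35.9%, and miR-337-5p held 193 counts where miR-3544 held 0. The remaining antisense pairs, miR-501-3p with miR-3560 (140 counts each) and miR-210-3p with miR-3574 (104 each), were equal but had enough counts in only 2 libraries. Of 17 same-strand pairs of equal length that differ at 1 base, 2 were near-identical. Both of these have the mismatch at base 22: miR-133a-3p to miR-133b-3p is G22A, and miR-103-3p to miR-107-3p is G22C. miR-1-3p and miR-1b, 1 base apart at base 17, were not near-identical and differed by up to 54.1%. The strand setting of the authors' counting and its handling of reads that match several miRNAs are unknown here. The counts of these rows are therefore uncertain, and members of a group cannot be told apart.

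4 entries led the resting profile, and 3 of them share a seed. miR-1-3p, a muscle-specific miRNA of myogenic differentiation, ran from 6.97% of counts in the lowest library over a median of 10.5% to 23.1% in the highest (mean 12.5% ± 5.64, SD, n = 12). miR-1b ran from 7.12% over 10.3% to 15.8% (10.6% ± 2.38). miR-206-3p, found mainly in skeletal muscle, ran from 4.86% over 7.82% to 21.3% (10.0% ± 5.31). These ranges overlap throughout, and the order of the first 4 entries by mean does not exceed their spread.

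miR-378a-3p, whose precursor lies in Ppargc1b, the gene of the coactivator PGC-1β, ran from 4.16% over 9.43% to 15.9% of counts (9.87% ± 3.94, SD, n = 12). It was the most abundant entry in 4 libraries (3, 4, 7 and 12), miR-206-3p in 1 (library 15) and miR-1-3p in the other 7. Without library 29, in which miR-1-3p and miR-206-3p were both at their highest, the means were 11.6% for miR-1-3p, 10.4% for miR-1b, 10.3% for miR-378a-3p and 8.97% for miR-206-3p, so miR-378a-3p then stood above miR-206-3p. The first 4 entries were also the only 4 among the 10 most abundant in every library, and 18 entries reached the first 10 in at least 1 library.

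Behind them came a group of entries at a few percent each. let-7i-5p, a member of the let-7 family that acts in developmental timing and differentiation, held 5.26% ± 1.43 of counts (SD, n = 12; 2.56% to 8.05%). miR-143-3p, abundant in smooth muscle, held 4.30% ± 2.07 (1.13% to 7.45%), and miR-486, expressed in both muscle and red blood cells, held 4.15% ± 1.48 (1.37% to 6.57%). These 3 ranges overlap with each other. Those of let-7i-5p and miR-143-3p reach into the ranges of all 4 leading entries, while miR-486 stayed below the lowest values of miR-1-3p and miR-1b.

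miR-151-3p followed with 3.17% ± 1.41 (SD, n = 12), miR-148a-3p with 2.96% ± 1.31, let-7c-5p with 2.66% ± 0.866, let-7f-5p with 2.21% ± 1.31, miR-99a-5p with 2.01% ± 1.12 and let-7b-5p with 1.98% ± 0.700. From one to the next in this order, the means differ by less than their standard deviations.

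2 further entries among the first 15 were nearly missing from library 29. miR-127-3p, whose precursor lies opposite the imprinted gene Rtl1, held 0.00361% of counts there and 0.949% to 4.53% in the other 11 libraries. miR-3473 held 0.00541% in library 29 and 0.234% to 3.66% elsewhere. Their means over the 12 libraries were 2.29% ± 1.27 and 1.81% ± 1.27 (SD), and 2.50% and 1.97% without library 29.

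**Figure D1:**
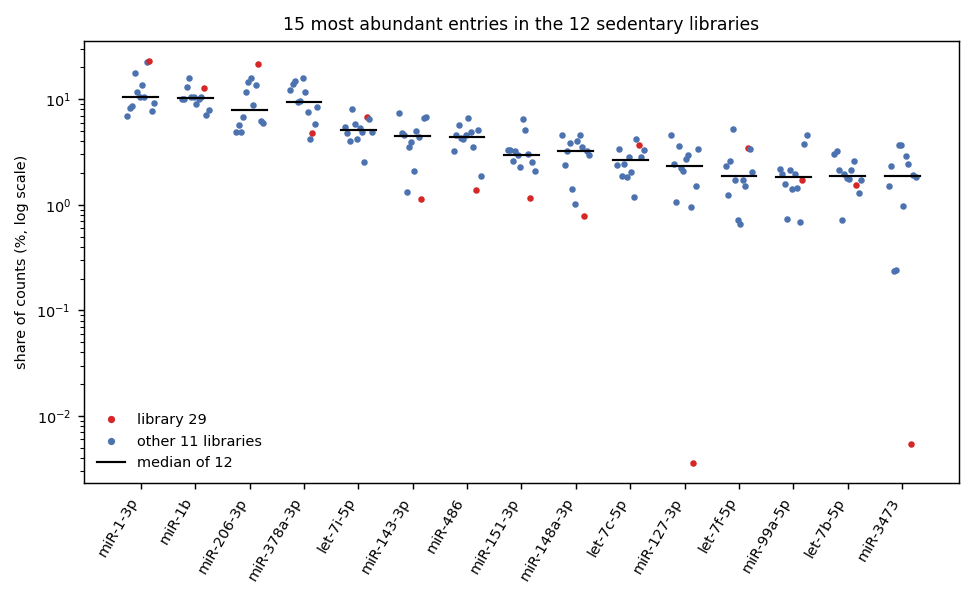
Share of counts (log scale) of the 15 most abundant entries, 1 point per sedentary library, with library 29 in red and the median as a bar. The ranges of neighbouring entries overlap, and the points of library 29 for miR-127-3p (0.00361%) and miR-3473 (0.00541%) lie far below all others.

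The profile was concentrated. Averaged over libraries, 6 entries held 50% of counts and 32 held 90%, out of 225 entries with any count. The 10 most abundant entries of a library took 68.2% ± 7.94 of it (SD, n = 12), from 57.5% in library 30 over a median of 65.2% to 81.4% in library 29. Libraries 8, 15 and 29 had the highest values (78.0%, 77.2% and 81.4%). Shannon entropy, which is higher where counts are spread over more entries, ran from 3.88 bits in library 29 to 5.15 bits in library 30.

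Summed by seed, the family of miR-1-3p, miR-1b and miR-206-3p took 33.1% ± 11.1 of counts (SD, n = 12; 21.2% to 57.1%), and 30.9% ± 8.54 without library 29 (n = 11; up to 46.7%). The let-7 seed, in 9 entries with miR-98-5p among them, took 13.7% ± 2.48 (10.5% to 18.2%). The seed of miR-378a-3p took 9.87%, that of miR-143-3p 4.30%, and that of miR-148a-3p, miR-148b-3p and miR-152-3p together 3.80% ± 1.41. The let-7 family had the smaller spread in relation to its mean, while the miR-1 family was at its highest in library 29 and at its lowest in library 30.

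**Figure D2:**
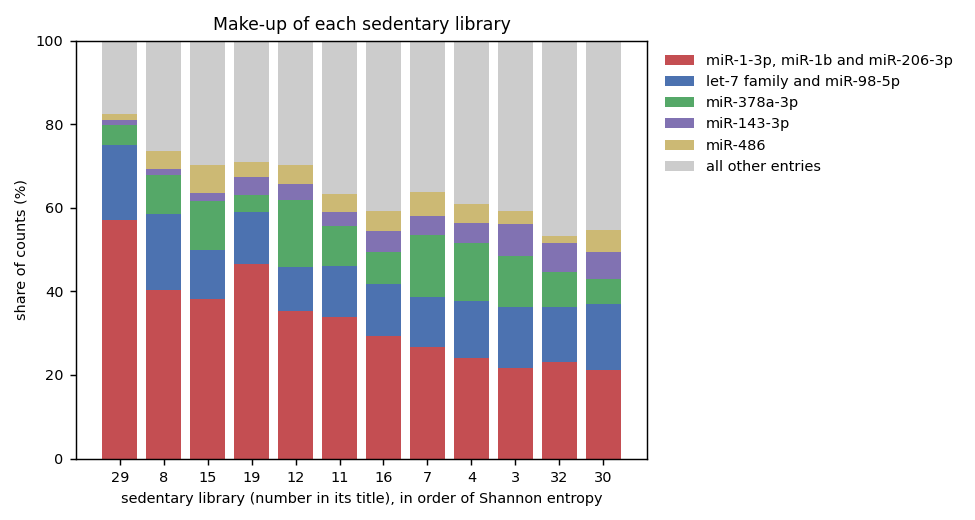
Share of counts taken by 2 seed families and 3 single miRNAs in each sedentary library, with libraries in order of Shannon entropy from 3.88 bits (library 29) to 5.15 bits (library 30). The miR-1 family takes from 21.2% to 57.1%, and all other entries together take the grey remainder.

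Entries with many counts shared features of sequence that the selection of libraries did not use. A 5′ uracil, the base that Argonaute proteins bind well at the first position, stood in 44.9% of the entries with a count and in 32.6% of those at 0. Of the counts whose sequence is known, entries with a 5′ uracil took 79.1% ± 6.80 (SD, n = 12; 68.6% to 92.1%), and entries with a 5′ guanine 0.391%. RNase A cuts after pyrimidines (C and U). Over the same counts, the mean pyrimidine content was 39.6% ± 2.25, while the median was 50.0% over entries with a count and 52.4% over those at 0. A few abundant families set the weighted values, and the part of the RNase step, of loading and of adapter ligation in them was not tested.

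Muscle-enriched miRNAs took the largest share of any marker list. The 12 muscle-enriched rows with a count, of 16 listed, together took 47.5% ± 9.88 of counts with near-identical rows counted once (SD, n = 12; 32.3% to 63.4%), and 46.1% ± 8.95 without library 29 (n = 11). Leaving out miR-378a and miR-486, which other tissues also express, the list took 33.5% ± 11.2 (n = 12). Within that list the levels were far apart. miR-133a-3p, which acts beside miR-1 in muscle, ran from 0% over 0.198% to 1.30% and had a count in 10 libraries. The slow-fibre and cardiac miRNA miR-499-5p had 72 counts in 3 libraries, and miR-208a-3p, miR-208b-3p, miR-499-3p and miR-133b-5p were at 0. In a list of 18 miRNAs described in mitochondria, 11 had a count and took 36.6% ± 8.03 of counts, of which miR-1-3p, miR-206-3p and miR-378a-3p, all in the muscle list too, were the largest share. miR-181c-5p, miR-34a-5p, miR-338-3p, miR-494-3p, miR-155-5p, miR-223-3p and miR-365-3p were at 0.

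Markers of other cells in muscle tissue were present at lower levels and uneven within each list. Of the erythrocyte list only miR-486, which the muscle list also holds, had counts, while miR-451-5p, miR-144-5p and miR-144-3p were at 0 in all libraries. Of the leukocyte list 4 of 7 had a count, with a summed share of 0.0110% to 1.56%. Its members miR-155-5p, miR-142-3p and miR-223-3p had no count. The endothelial list (3 of 4 with a count) took 1.08% ± 0.656 (SD, n = 12; 0.355% to 2.42%), with miR-126a-3p at 0.940% and miR-221-3p and miR-222-3p at 0.0841% and 0.0576% on average, and miR-126a-5p at 0. miR-221-3p reached 0.510% in library 8. The smooth muscle list (4 of 4) took 4.33% ± 2.10 (1.14% to 7.53%), nearly all from miR-143-3p. The fibroblast list (6 of 8) took 0.672% ± 0.653 (0.0209% to 2.25%), with miR-214-5p and miR-29b-3p at 0.

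Markers of other organs were mostly at or near 0. The liver list (2 of 4) ran from 0% to 0.914%, from miR-122-5p and miR-192-5p, with miR-122-3p and miR-194-5p at 0. The epithelial list (2 of 7) ran from 0% to 0.203%, with miR-200a-3p, miR-200b-3p, miR-141-3p, miR-429 and miR-205 at 0. The brain list (2 of 6) took 0.596% ± 0.337 (SD, n = 12), nearly all from miR-128-3p, which muscle also expresses, with miR-124-3p, miR-9a-3p, miR-138-5p and miR-129-5p at 0. The pancreas markers miR-375-3p, miR-216a-5p and miR-217-5p were at 0. These are bulk samples of an RNase-treated mitochondrial fraction, so the lists do not measure cell content. Fewer cells of a type, less RNA per cell and less of a miRNA in the fraction cannot be told apart.

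The libraries, 1 per rat, differed widely in most entries. Over the 52 entries with a mean of at least 100 counts, the coefficient of variation (CV) of the share between libraries had a median of 68.2% and ran from 22.5% to 173%. Counting alone would give a median of 5.08% at these means in libraries of equal depth, and somewhat more where depth differs, as it does here. The 10 most abundant entries had a median CV of 42.0%, and the other 42 of 74.6%. A negative binomial fit with edgeR gave a common biological CV of 0.874 over 47 entries. With 1 library per rat, this value cannot separate variation between rats from variation in making the libraries.

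miR-1b had the smallest spread among the 52, with a CV of 22.5%, followed by let-7i-5p (27.1%), let-7c-5p (32.5%), let-7g-5p (33.3%) and let-7b-5p (35.3%). The let-7 family was not steady as a whole. let-7f-5p (2.21% ± 1.31, SD, n = 12) and let-7a-5p (0.663% ± 0.372), also among the 52, spread more in relation to their means. miR-21-5p, a miRNA induced in many kinds of tissue stress, had the largest CV (173%), and ran from 0% in library 19 over 0.121% to 1.42% in library 4. miR-146b-5p followed with 155%, from 0% in 3 libraries (8, 11 and 12) to 0.991% in library 16. miR-92a-3p (134%), miR-133a-3p (124%) and miR-22-3p (120%) came next.

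Some entries were nearly absent from single libraries, which by itself raises their CV. Whether the CV followed near-absence from entry to entry was not tested. Of 760 values in which an entry's overall share would give at least 50 counts in a library, 128 were under 0.1 of that count and 47 of these were 0. Libraries 8, 15 and 29 held 25 of 69, 23 of 61 and 20 of 64 such values, against 2 to 12 in each of the other 9. Of the 52 entries with a mean of at least 100 counts, 23 had no such library and 17 had 2 or more. miR-133a-3p and miR-92a-3p were nearly missing in this sense from 5 libraries each. The median CV without library 29 was 62.9%, without library 8 65.8% and without library 15 63.2%. The part of the low input, the diluted adapters (0.3 of the usual strength) or the 20 PCR cycles in these gaps was not tested.

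**Figure D3:**
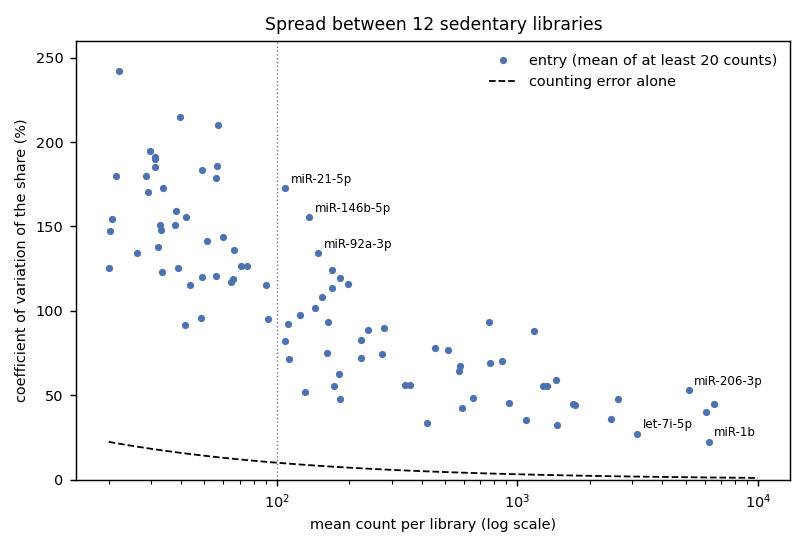
Coefficient of variation of the share between the 12 sedentary libraries against the mean count per library (log scale), 1 point per entry with a mean of at least 20 counts. The dashed line is the spread that counting alone gives in libraries of equal depth. All points lie above the line, from miR-1b at 22.5% to entries with few counts above 173%, and the dotted line marks a mean of 100 counts.

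The number of entries found in a library went with its depth. Entries with a count ran from 74 to 140 per library, and this number correlated with the log2 total count (Pearson r = 0.75, permutation test of 100000 resamples, p = 0.00271, adjusted p = 0.0135 over 5 measures; Spearman rho = 0.86, p = 0.000850, adjusted p = 0.00425; n = 12). Without the libraries farthest from the median total (4 and 19), r was 0.72 (adjusted p = 0.0705), so the call by Pearson's r was lost, while rho was 0.83 (adjusted p = 0.0240). At an equal depth of 8957 counts, entries with a count ran from 63.4 to 122, and their correlation with depth did not pass the threshold (r = 0.55, p = 0.0594, adjusted p = 0.149, permutation test; rho = 0.62, adjusted p = 0.0876; without libraries 4 and 19 r = 0.64). The share of the 10 most abundant entries (r = -0.14), entropy (r = 0.23) and the share of the most abundant entry (r = -0.38) did not pass either, and the last turned to 0.016 without library 19.

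For most precursors nearly all counts came from 1 arm. Both arms were listed, with a count, for 156 precursors, and 49 had at least 20 counts over both arms in at least 8 libraries. Hairpins that share a mature name were taken as 1 precursor, so the 3p counts of miR-125b sum miR-125b-1-3p and miR-125b-2-3p. Arms were summed likewise for others, among them miR-30c, let-7c, let-7f, let-7a, miR-24, miR-128, miR-103 and miR-7a. Arm choice was tested on log2 of the 5p over the 3p count (0.5 added to each) with an exact two-sided sign-flip permutation test over libraries, for which 0.000488 is the smallest p that 12 libraries allow. The 5p arm was higher in 24 precursors (49% of those tested) and the 3p arm in 20 (40.8%) at an adjusted p under 0.05. In 38 of the 49 the same arm was higher in every library used. In 27 of the 49 the lesser arm was at 0 in all 12 libraries, and in 34 the higher arm held over 99% of counts.

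The 8 precursors with most counts were all of this kind, each with the same arm higher in all 12 libraries (exact sign-flip permutation test, adjusted p = 0.00120 for each). On the 3p side, the precursors of miR-1 (78954 counts on 3p, 0 on 5p), miR-206 (61787 and 0) and miR-148a (20869 and 0) had no count from the other arm. miR-378a held 72711 counts on 3p and 47 on 5p, miR-143 held 31524 and 71, and miR-151 held 20527 and 167. On the 5p side, let-7i held 37881 counts and 0 on 3p, and let-7c held 17558 and 74. Where the lesser arm is at 0, the fitted ratio depends on the 0.5 that was added, so no fold is given.

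2 hairpins are printed, 1 with the same arm higher in every library and 1 whose higher arm differed between libraries. In these RefSeq sequences, capitals mark the 5p arm (first) and the 3p arm (second).
let-7i hairpin: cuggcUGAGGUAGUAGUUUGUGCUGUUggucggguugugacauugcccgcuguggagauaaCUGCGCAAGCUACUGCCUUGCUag
miR-30a hairpin: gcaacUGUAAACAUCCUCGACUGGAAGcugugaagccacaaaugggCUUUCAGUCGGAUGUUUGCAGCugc
let-7i gave 5p counts alone. miR-30a gave 2674 counts from 5p and 1943 from 3p in all, and its 5p share ran from 1.79% in library 15 over a median of 60.1% to 100% in library 29. The 5p arm was higher in 6 of the 11 libraries used and the 3p arm in 5 (exact sign-flip permutation test, p = 0.616, adjusted p = 0.616). The mean log2 ratio was 0.66 ± 4.11 (SD, n = 11), and -0.18 without library 29, which turns its direction. In library 12 the arms stood at 274 and 2 counts, and in library 15 at 4 and 219, so opposite arms led in these 2 libraries.

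In 11 tested precursors the higher arm differed between libraries. Besides miR-30a, 4 of them did not pass the test. miR-125b had a median of 80.2% from 5p, with 5p higher in 9 libraries and 3p in 2 (exact permutation test, adjusted p = 0.160). It was at 1.61% in library 15 and 8.82% in library 29, and passed without library 15 (adjusted p = 0.0268), but not without library 29 (adjusted p = 0.0837). let-7d (median 84.1% from 5p, 7 libraries of 8), miR-30c (28.2%, 3p higher in 7 of 9) and miR-150 (16.5%, 3p higher in 6 of 8) did not pass either (adjusted p = 0.141, 0.141 and 0.160), though miR-30c passed without library 30 (adjusted p = 0.0168). A p above the threshold does not show that both arms were equal. In library 15 miR-125b had 4 counts from 5p and 244 from 3p, the latter all from miR-125b-1-3p. miR-125b-5p was under 0.1 of the count that its overall share would give in 3 libraries.

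The other 6 passed, with an exception in 1 or 2 libraries each. miR-423 was mainly 5p (median 79.4%, 10 libraries of 12), and 3p was higher in libraries 11 and 30. miR-351 was 5p in 11 libraries and at 30.3% in library 15. miR-485 was 5p in 8 of 9 libraries, with 1 count from 5p and 148 from 3p in library 8. miR-22 was 3p in 9 of 10 libraries, with 94.4% from 5p in library 8 (34 counts, against 2 from 3p). miR-27b was 3p in 8 of 9, with 65% from 5p in library 30, and miR-133a was 3p in 7 of 8, with all of its 24 counts from 5p in library 12. Some libraries held more than 1 exception: library 8 those of miR-22 and miR-485, and library 30 those of miR-423 and miR-27b. Library 15 was low on 5p in miR-125b, miR-30a and miR-351. Libraries 8 and 15 also held many of the nearly missing values described above. Some of these arm values are the same data: miR-22-3p had 2 counts in library 8, and miR-125b-5p and miR-30a-5p had 4 each in library 15. The 2 observations are therefore not independent.

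**Figure D4:**
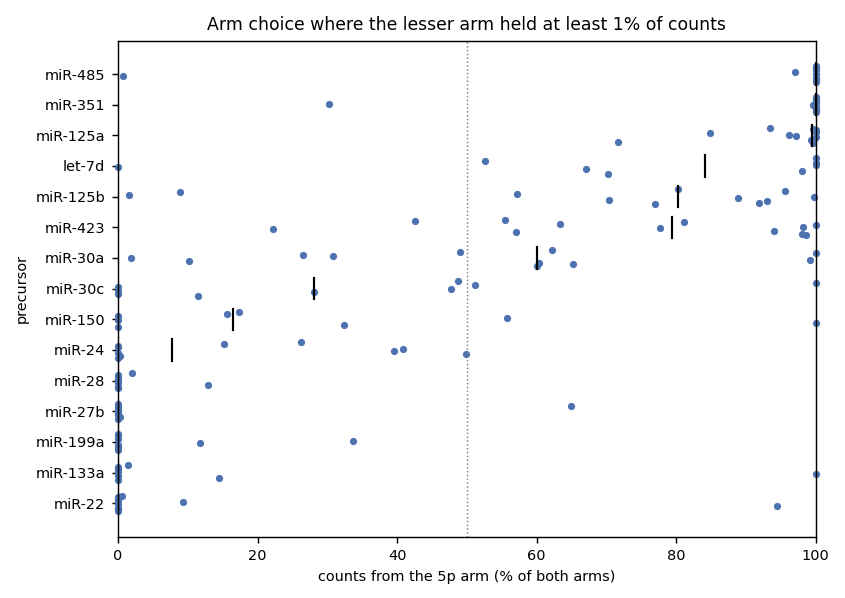
Share of counts from the 5p arm in each sedentary library with at least 20 counts over both arms, for the 15 tested precursors whose lesser arm held at least 1% of counts, with the median as a bar and 50% as a dotted line. miR-30a spans 1.79% to 100%, and miR-22, miR-27b, miR-133a, miR-351 and miR-485 each have 1 library on the other side of the dotted line.

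In some clusters the partners differed in level by more than 10-fold. Clusters were precursors within 10 kb of each other in GRCr8, on the same strand or where a strand was not known. This distance is a property of that assembly and was used for neighbours only. Adapter ligation differs between miRNAs, so a ratio of counts between them is not a ratio of molecules. miR-1-3p held 78954 counts and its partner miR-133a-3p (which joins the rows of miR-133b-3p and miR-133c) 2031, 38.9-fold fewer, and was higher in 12 of 12 libraries. miR-143-3p held 31524 counts and miR-145-5p, transcribed with it from Carmn, 208, which is 152-fold fewer, again in 12 of 12 libraries. miR-379-5p held 3282 counts against 81 for miR-411-5p, 40.5-fold fewer, also in 12 of 12.

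In other clusters the 2 highest entries were closer in counts summed over libraries, though further members could be far lower. let-7c-5p (17558 counts, from 2 precursors) and miR-99a-5p (15293) stood at a ratio of 1.15, with let-7c-5p higher in 8 of 12 libraries. miR-99b-5p (7061) and miR-125a-5p (6147), both within Spaca6, also stood at 1.15. miR-24-3p (1576) and miR-27b-3p (1494) stood at 1.05, where miR-24-3p comes from 2 precursors of which 1 lies with miR-27b in Aopep. miR-106b-3p (1099) and miR-25-3p (1082), in the cluster whose host is Mcm7, stood at 1.02. The first was higher in 5 of 12 libraries, and both were at 0 in libraries 16 and 19. Within libraries they could be far apart, at 133 and 0 in library 15 and at 0 and 51 in library 29. let-7f-5p (17365) was 4.06-fold above let-7a-5p (4282) and higher in 11 of 12 libraries, and each of these comes from 2 precursors. Among the further members of these clusters, let-7e-5p beside miR-99b-5p held 850 counts, miR-23b-3p beside miR-27b-3p held 62, and miR-93-5p beside miR-106b-3p held 25. Counts of a miRNA with several precursors cannot be assigned to 1 of them.

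Of the 47 entries with enough counts for correlation, 46 had a precursor in the gene table. Of these, 24 overlapped a protein-coding gene that was on the same strand or whose relative strand was not known. The 24 thus include miR-127-3p with Rtl1, opposite which its precursor lies. These overlapping genes included Ppargc1b for miR-378a-3p, Pank2 for miR-103-3p, Egfl7 for miR-126a-3p, Ptk2 for miR-151-3p, Ctdspl for miR-26a-5p, Copz2 for miR-152-3p, Lpp for miR-28-3p, Dalrd3 for miR-191a-5p and Nsrp1 for miR-423-5p. R3hdm1 and Arpp21 each hold a copy of the miR-128-3p precursor. For Ppargc1b, Egfl7, Ptk2, Copz2 and Lpp among these, the strand was not known. Host transcripts were not measured.

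No pair of entries passed the test for rising and falling together on the TMM scale. The 47 entries with at least 10 counts in at least 9 libraries gave 1081 pairs, and Pearson's r of log2 CPM (TMM-scaled, prior count 2) was tested with 100000 permutations per pair, for which 1e-05 is the smallest p they can give. After Benjamini-Hochberg adjustment 0 pairs (0%) were under 0.05, by Pearson's r and by Spearman's rho. At an unadjusted permutation p under 0.05 there were 110 pairs by Pearson's r and 84 by Spearman's rho. The median r was 0.04, 589 pairs had a positive r, and the range was -0.78 to 0.94. The pairs below are thus given as values that did not pass. With CPM scaled by the total count alone, 3 pairs passed: miR-10b-5p with miR-99b-5p (adjusted permutation p = 0.0108), miR-10b-5p with miR-143-3p (0.0216) and miR-99b-5p with miR-143-3p (0.0360).

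The highest r was that of miR-99b-5p and miR-3473 (r = 0.94, permutation p = 0.000380, adjusted p = 0.102; rho = 0.76, adjusted p = 0.387), which was 0.68 without libraries 8 and 29. miR-125b-5p and miR-146a-5p had r = 0.94 (permutation p = 0.00260, adjusted p = 0.165; rho = 0.64, adjusted p = 0.603), and 0.90 without libraries 15 and 29. miR-10b-5p and miR-99b-5p had r = 0.89, and 0.41 without libraries 29 and 30. miR-99b-5p and miR-143-3p had r = 0.88, and 0.50 without libraries 8 and 29. miR-134-5p and miR-152-3p had r = 0.87, and 0.30 without libraries 4 and 19. The libraries left out are those farthest from the median of the first miRNA named in a pair. Of these 5 pairs, only that of miR-125b-5p and miR-146a-5p then stayed above 0.68. Library 19, where its counts were 4 and 0, was still included. The r of this pair was 0.28 over the 6 libraries numbered 3 to 12 and 0.93 over the 6 numbered 15 to 32. Permutation p-values of the 5 pairs ran up to 0.00483. Their adjusted p-values ran from 0.102 to 0.218 by Pearson's r and from 0.387 to 0.621 by Spearman's rho.

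The lowest r was that of let-7b-5p and miR-126a-3p (r = -0.78, permutation p = 0.00283, adjusted p = 0.170; rho = -0.69, adjusted p = 0.584), and -0.64 without libraries 8 and 30. miR-1-3p and miR-143-3p, the leading muscle and smooth muscle markers, had r = -0.77 (permutation p = 0.00227, adjusted p = 0.153; rho = -0.67, adjusted p = 0.603), and -0.60 without libraries 8 and 29. miR-30a-5p and miR-151-3p had r = -0.77, let-7b-5p and let-7f-5p -0.75, and miR-22-3p and miR-148a-3p -0.73. Without the libraries farthest from the median of the first miRNA named, these 3 stood at -0.54, -0.47 and -0.54. Some of the negative values changed with scaling: as centred log-ratios, r was -0.12 for let-7b-5p and miR-126a-3p, -0.31 for miR-1-3p and miR-143-3p, and 0.0049 for let-7b-5p and let-7f-5p. These 5 pairs had adjusted p-values from 0.153 to 0.260 by Pearson's r and from 0.387 to 0.603 by Spearman's rho.

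Entries that share a seed gave 22 of the pairs, and 0 passed by either coefficient. 15 had a positive r, with a median of 0.25 against 0.04 over all 1081 pairs. The miR-1 family lay at the upper end: miR-1-3p had r = 0.83 with miR-206-3p (rho = 0.85, adjusted p = 0.116 and 0.342, permutation test; r = 0.89 without libraries 8 and 29) and r = 0.76 with miR-1b (rho = 0.75, adjusted p = 0.135 and 0.387; 0.55 without the same libraries). The ratio of miR-1b to miR-1-3p still ran from 0.459 in library 19 to 1.54 in library 7, and that of miR-206-3p to miR-1-3p from 0.381 in library 8 to 1.37 in library 12. In the let-7 family the values on the TMM scale went both ways. let-7a-5p and let-7g-5p had r = 0.66 and let-7f-5p and let-7i-5p had r = 0.61, while let-7b-5p had -0.65 with let-7i-5p and -0.75 with let-7f-5p, the latter at 0.0049 as a centred log-ratio.

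The pairs were then read by position. 7 pairs were arms of 1 precursor or neighbours within 10 kb, 0 passed, 3 had a positive r, and the median r was -0.06 (-0.19 to 0.64). The highest was miR-24-3p with miR-27b-3p (r = 0.64, permutation p = 0.0170, adjusted p = 0.394; rho = 0.33, adjusted p = 0.913), and -0.12 without libraries 4 and 15. let-7a-5p and let-7f-5p had r = 0.36, let-7c-5p and miR-99a-5p -0.13, let-7b-5p and let-7c-5p -0.19, and miR-99b-5p and miR-125a-5p, both within Spaca6, -0.06. The arms of miR-30a had r = -0.06, and 0.57 without libraries 12 and 29, which turns the direction. miR-134-5p and miR-541-5p had r = 0.11, and 0.75 without libraries 4 and 19. The pairs had adjusted p-values from 0.394 to 0.987 by Pearson's r, and with 12 libraries such values do not show that partners vary independently.

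**Figure D5:**
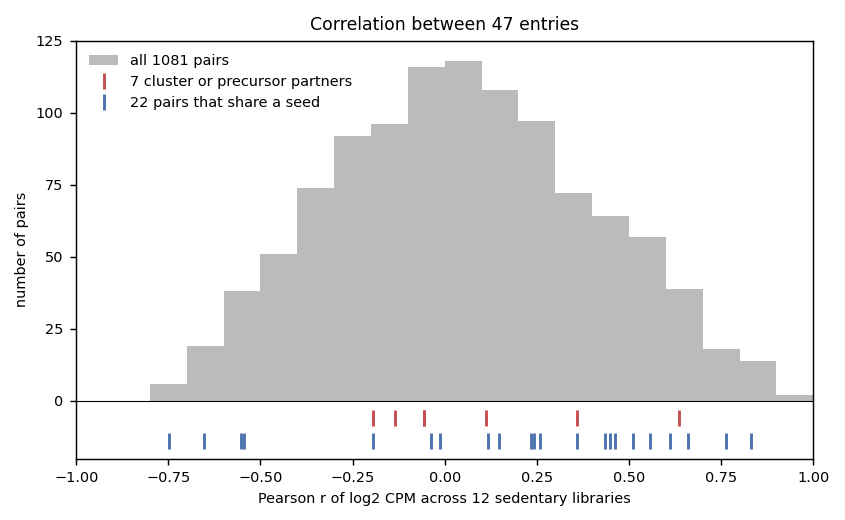
Number of pairs of entries at each Pearson r of log2 CPM across the 12 sedentary libraries (grey), with the 7 partners in a cluster or precursor in red and the 22 pairs that share a seed in blue as ticks below. The grey distribution is centred near 0 (median 0.04), the partners run from -0.19 to 0.64, and the seed pairs from -0.75 to 0.83.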

How the data were processed

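Of 25 libraries, the 12 labelled sedentary were used, grouped by their titles. The authors deposited raw counts per mature miRNA (empty cells were read as 0). They also deposited a normalized signal, in which 1 factor per library divides every raw count, and which served for alternatives only. fastp 0.20.0 and DESeq2 1.36 are listed in the submitters' processing notes. No aligner, counter, strand setting or genome build was given in the sources used here, and no coordinates are printed. Near-identical rows (within 10%, among rows with at least 100 counts) were counted once, through the row with most counts. Shares are percent of the remaining total. TMM factors, log2 CPM and the biological CV came from edgeR 4.0.16 (R 4.3.3). Permutation tests and figures were written with numpy 2.4.6, pandas 2.3.3 and matplotlib 3.10.9, and were checked on simulated data. P-values were adjusted by Benjamini-Hochberg at a threshold of 0.05. The labels name no litter or batch, so p-values measure only the spread between these libraries. Sequences and neighbouring genes came from RefSeq (GRCr8).

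Named were the 15 entries with the highest mean share, the 5 with the highest and the 5 with the lowest CV, the 8 tested precursors with most counts and those whose higher arm differed between libraries, partner pairs, the 5 highest and the 5 lowest correlated pairs, markers at 0 and the largest near-identical groups. Other names were chosen after their values were seen. The members and lists were chosen with earlier results of these data known. Alternatives changed the tolerance (5%, 20% or every row), the scaling, the minimum counts and the window (50 kb), or left out libraries. Family and list shares without library 29 were added after seeing the data.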

Additional observations from a re-analysis of the deposited data

How the results depend on the processing

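The share of the 10 most abundant entries moved by less than its standard deviation under every alternative tried, and was 67.0% to 69.1% when each library was left out. The mean share of miR-1b was 7.70% with every row counted. The median CV stayed within 1.5 times its value in each setting, at 60.3% to 70.6% when each library was left out, 99.7% over entries with a mean of at least 20 counts and 48.1% over those with at least 500. Arm choice was called in 39 to 44 precursors when each library was left out. The mean log2 ratio of miR-30a ran from -0.18 without library 29 to 1.29 without library 15. Pairs that rise and fall together numbered 0 by the main setting and 0 or 1 when each library was left out: 1 without library 3 (miR-28-3p and miR-351-5p) and 1 without library 7 (miR-106b-3p and miR-152-3p). CPM scaled by the total count gave 3 pairs, all among miR-10b-5p, miR-99b-5p and miR-143-3p. At least 10 counts in at least 6 libraries gave 1 (let-7d-5p and its antisense row miR-3596b), and a count in at least 6 libraries gave 2 (the same and miR-501-3p with miR-3560, also antisense). The other 7 settings gave 0. let-7b-5p and let-7f-5p had r = 0.0049 on the centred log-ratio scale. Entries with a count had r = 0.72 with depth without libraries 4 and 19 (adjusted p = 0.0705). The share of the most abundant entry had r = 0.016 with depth without library 19, and 0.023 without libraries 4 and 19. Within title numbers up to 13 and above 13, miR-1-3p and miR-206-3p had r = 0.74 and 0.92. The depth limits arm calls to 49 of 156 precursors and correlation to 47 of 225 entries.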
